A study of Rattus norvegicus with 9 samples.

Results

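The 10 genes described here mark Kupffer cells and other macrophages of the liver: Clec4f, Vsig4, Cd5l, Marco, Cd163, Cd68, Csf1r, Adgre1, C1qa and C1qb. They were chosen by name as macrophage genes, and all 10 of the 10 named symbols were among the 15565 genes that both deposited tables of rat liver RNA share. The RNA came from male rats of the strain labelled SD and was sequenced in 9 libraries, 3 per group. The SCL-treated rats were given SCL, which the labels spell out as Smilax china L., a plant, and their livers are labelled as non-alcoholic fatty liver, though the diet of this group is not stated. The high-fat diet rats ate that diet for 8 weeks, which was meant to bring on fatty liver, and the normal diet rats ate normal food. The title of high-fat diet replicate 1 has a different code from those of replicates 2 and 3, and no meaning was taken from it. The study's design text calls the treated group SCS, and it was taken here as the group labelled SCL. No dose or length of treatment and no age is given in the labels.

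Kupffer cells are the macrophages that live inside the liver sinusoids, where they clear bacteria, debris and old red blood cells from the blood. They depend on signalling through the colony stimulating factor 1 receptor, carry lectin and scavenger receptors on their surface, and make much of the body's complement C1q. In fatty liver disease, resident Kupffer cells can be lost and monocytes can enter the tissue and become macrophages.

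The libraries held 12413774 to 15521648 reads each, and the 10 genes had between 52 and 4137 reads per gene and library. Transcripts of the mitochondrial genome took 10.97%, 49.0% and 7.04% of reads in SCL-treated replicates 1, 2 and 3, then 4.90%, 18.8% and 44.1% in the high-fat diet replicates, and 4.63%, 3.85% and 11.2% in the normal diet replicates. SCL-treated replicate 2 and high-fat diet replicate 3 thus stood apart from the other 7, and results are given with and without them. The hepatocyte markers Alb and Ttr were abundant in every library, and none of the 12 hepatocyte markers listed was without reads. The labels do not say whether each library is another animal, and the spread that p-values rest on here is that between libraries, part of which may be technical.

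Promoter sequences are shown for 2 pairs of genes whose levels are set side by side below: Clec4f with Vsig4, and C1qa with C1qb, which are transcribed from the same strand of rat chromosome 5. RefSeq (build GRCr8) gives a promoter for each of the 10 genes, from 250 bases before the start of the gene to 50 after it. The sequences lie at chr4:117696358-117696657 for Clec4f, chrX:65179659-65179958 for Vsig4, chr5:154419884-154420183 for C1qa and chr5:154407778-154408077 for C1qb, all on the minus strand. Capitals mark TGCTGA on either strand, part of the site bound by MAF factors, which are active in macrophages.
Clec4f: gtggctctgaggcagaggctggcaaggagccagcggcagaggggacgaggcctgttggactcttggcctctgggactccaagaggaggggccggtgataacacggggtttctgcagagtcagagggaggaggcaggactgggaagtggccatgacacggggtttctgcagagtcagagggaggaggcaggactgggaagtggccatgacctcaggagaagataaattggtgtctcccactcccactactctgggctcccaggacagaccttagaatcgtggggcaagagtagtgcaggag
Vsig4: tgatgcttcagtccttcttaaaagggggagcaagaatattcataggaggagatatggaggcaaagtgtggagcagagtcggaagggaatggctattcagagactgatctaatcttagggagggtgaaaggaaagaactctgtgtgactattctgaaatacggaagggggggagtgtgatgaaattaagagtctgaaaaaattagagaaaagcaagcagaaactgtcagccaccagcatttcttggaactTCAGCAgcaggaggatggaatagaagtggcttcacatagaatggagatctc
C1qa: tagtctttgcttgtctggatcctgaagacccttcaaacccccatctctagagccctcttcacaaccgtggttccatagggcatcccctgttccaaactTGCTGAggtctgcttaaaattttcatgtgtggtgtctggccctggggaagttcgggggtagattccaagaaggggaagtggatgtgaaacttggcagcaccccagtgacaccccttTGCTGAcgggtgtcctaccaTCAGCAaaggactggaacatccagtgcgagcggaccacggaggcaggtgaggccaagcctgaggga
C1qb: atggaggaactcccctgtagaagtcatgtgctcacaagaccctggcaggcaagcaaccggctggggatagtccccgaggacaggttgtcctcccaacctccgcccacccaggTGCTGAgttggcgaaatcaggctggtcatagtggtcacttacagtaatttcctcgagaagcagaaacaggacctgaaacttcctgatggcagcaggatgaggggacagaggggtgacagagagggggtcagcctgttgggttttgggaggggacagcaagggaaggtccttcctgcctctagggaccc
TGCTGA or its reverse complement was found in 6 of the 10 promoters (Vsig4, Cd5l, Cd68, Adgre1, C1qa and C1qb), against 18.4% of all 33469 promoters of this length. The C1qa promoter held 3 copies and the Cd5l promoter 2. The longer word GAGGAAGT, a form of the site of the myeloid factor PU.1, was in 0 of the 10 and in 2.42% of all promoters, searched on both strands. These matches are descriptions of letters and were not tested.

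Levels of the 10 genes were first compared with each other per length, in the authors' FPKM (fragments per kilobase of gene and per 10⁶ reads). C1qa, a chain of complement C1q, had a mean of 85.9 FPKM over the 9 libraries and ranged from 25.2 to 138.1 FPKM. Clec4f, a C-type lectin receptor of Kupffer cells, had a mean of 84.6 FPKM and ranged from 24.3 to 141.1 FPKM. C1qa was above Clec4f in 5 of the 9 libraries, so their order is not settled. Both means were higher than those of about 95% of the genes in both tables (95.5% for C1qa and 95.4% for Clec4f). C1qb, another C1q chain, came next at 57.6 FPKM and was below Clec4f in 9 of 9 libraries. Cd5l, a secreted protein that protects macrophages from cell death, had a mean of 34.5 FPKM. Cd68, a glycoprotein of the lysosomes, had 19.9 FPKM, and Vsig4, a receptor for complement C3 fragments, had 16.3 FPKM, with Cd68 the higher in 5 of 9 libraries. Csf1r, the growth factor receptor of macrophages, had 12.36 FPKM and Marco, a scavenger receptor that binds bacteria, had 11.005 FPKM, again with the first higher in 5 of 9. The lowest were Cd163, the receptor that takes up haptoglobin bound to haemoglobin, at 5.28 FPKM and Adgre1, the gene of the F4/80 antigen in mouse, at 3.76 FPKM.

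The 9 libraries spread widely for some members and little for others. On CPM (counts per 10⁶ reads, scaled between libraries by the TMM method), the highest library was 8.00 times the lowest for Marco, 6.95 times for Cd5l, 5.22 times for Clec4f, 4.93 times for C1qb and 4.64 times for Vsig4. The ratio was 2.05 for Cd163, 2.24 for Adgre1, 2.26 for Cd68 and 2.44 for Csf1r. The standard deviation of log2 CPM over all libraries was larger for Marco than for 89.9% of the genes tested, and smaller for Cd68 than for most, with 28.8% of genes below it. In CPM, the lowest library was SCL-treated replicate 2 for 5 of the 10 genes and high-fat diet replicate 3 for the other 5, the libraries with the largest mitochondrial shares. Per 10⁶ reads that were not mitochondrial, other libraries were the lowest for some genes. These were SCL-treated replicate 3 for Cd163 (15.8) and Adgre1 (10.8), SCL-treated replicate 1 for Csf1r (44.9) and high-fat diet replicate 1 for Cd68 (21.7).

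**Figure D1:**
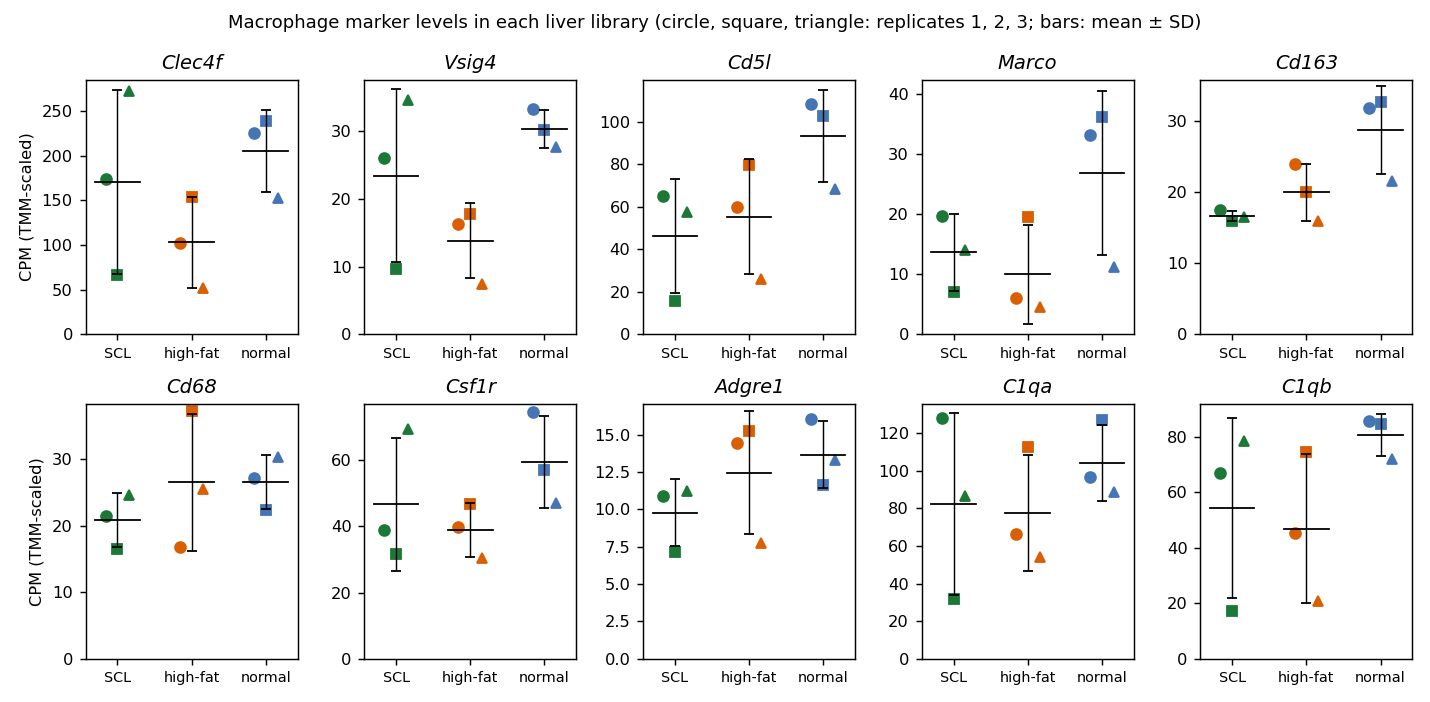
Level of each of the 10 macrophage genes in CPM (vertical axes, linear, each panel with its own range from 0) in the SCL-treated, high-fat diet and normal diet libraries; points are libraries and bars the mean ± SD (n = 3). High-fat diet libraries were all below the normal diet libraries for Vsig4 and Csf1r, and SCL-treated libraries were all below them for Cd5l, Cd163 and Adgre1.

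High-fat diet livers were compared with normal diet livers to ask what the diet did to macrophage transcripts. All 10 genes had a log2 fold change below 0, as did 47.2% of all 12041 genes tested, and the median over the 10 was -0.68 against 0.03 over all genes. None of the 10 passed the test (edgeR quasi-likelihood, Benjamini-Hochberg adjusted p under 0.05 over all genes, lowest adjusted p = 0.91), and 0.0083% of all genes did. DESeq2 and limma-voom also called 0 of the 10. Unadjusted p was under 0.05 for 2 of the 10, Vsig4 and Marco, and for 4.32% of all genes. DESeq2 called 0.415% of all genes. In bulk tissue, fewer macrophages and less RNA per macrophage cannot be told apart.

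Marco, Vsig4 and Clec4f had the most negative log2 fold changes. Vsig4 had 16.3, 17.8 and 7.47 CPM in high-fat diet livers, against 33.3, 30.1 and 27.6 CPM in normal diet livers. The groups did not overlap, and the means were 13.9 ± 5.58 CPM on the high-fat diet and 30.3 ± 2.83 CPM on the normal diet (SD, n = 3 each). The log2 fold change was -1.13 (SE 0.45, edgeR unadjusted p = 0.030, adjusted p = 0.91). In CPM, groups lay apart in the downward direction for 2 of the 10 genes, Vsig4 and Csf1r, and for 5.27% of all genes. Marco had 6.12, 19.5 and 4.52 CPM in high-fat diet livers, against 33.2, 36.1 and 11.2 CPM in normal diet livers. High-fat diet replicate 2 was above normal diet replicate 3, so these groups overlapped, and the log2 fold change was -1.42 (SE 0.62, edgeR unadjusted p = 0.043, adjusted p = 0.91). Clec4f had 102.1, 154.3 and 52.2 CPM in high-fat diet livers, against 225.1, 238.3 and 153.1 CPM in normal diet livers. High-fat diet replicate 2 only just reached the lowest normal diet library, and the log2 fold change was -0.998 (SE 0.51, edgeR adjusted p = 0.91).

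The secreted protein, the haemoglobin receptor and the C1q chains also had means below those of the normal diet. Cd5l averaged 55.4 ± 27.0 CPM in high-fat diet livers and 93.3 ± 21.6 CPM in normal diet livers (SD, n = 3 each), a log2 fold change of -0.75 (SE 0.52). Cd163 had 24.00, 20.02 and 15.98 CPM in high-fat diet livers, against 31.8, 32.7 and 21.6 CPM in normal diet livers. High-fat diet replicate 1 exceeded normal diet replicate 3, and the log2 fold change was -0.52 (SE 0.26). C1qb averaged 46.95 ± 26.95 CPM in high-fat diet livers and 80.7 ± 7.59 CPM in normal diet livers, and C1qa averaged 77.4 ± 30.8 CPM in high-fat diet livers and 103.9 ± 20.3 CPM in normal diet livers (SD, n = 3 each). Their log2 fold changes were -0.78 (SE 0.54) for C1qb and -0.42 (SE 0.46) for C1qa, and neither passed.

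Of the growth factor receptor, the F4/80 gene and the lysosomal glycoprotein, Csf1r had a value between those of Cd5l and Cd163, while Adgre1 and Cd68 lay closest to 0. Csf1r had 39.7, 46.8 and 30.6 CPM in high-fat diet livers, against 74.6, 57.1 and 47.1 CPM in normal diet livers. The highest of the first group lay just under the lowest of the second, and the log2 fold change was -0.61 (SE 0.34, edgeR adjusted p = 0.91). Adgre1 had 14.4, 15.2 and 7.73 CPM in high-fat diet livers, against 16.1, 11.6 and 13.3 CPM in normal diet livers, with a log2 fold change of -0.13 (SE 0.33). Cd68 had 16.8, 37.2 and 25.5 CPM in high-fat diet livers, against 27.2, 22.3 and 30.3 CPM in normal diet livers, with a log2 fold change of -0.01 (SE 0.32). High-fat diet replicates 1 and 2 were the lowest and the highest of these 6 libraries for Cd68. Without high-fat diet replicate 3 the value for Adgre1 was 0.11, and for Cd68 the value was 0.23 without high-fat diet replicate 1, 0.01 without replicate 3, and 0.0045 and 0.09 without normal diet replicates 1 and 3, so neither gene has a settled direction. When 1 library was left out Marco ran from -2.34 to -1.09, Vsig4 from -1.35 to -0.84 and Clec4f from -1.42 to -0.69.

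**Figure D2:**
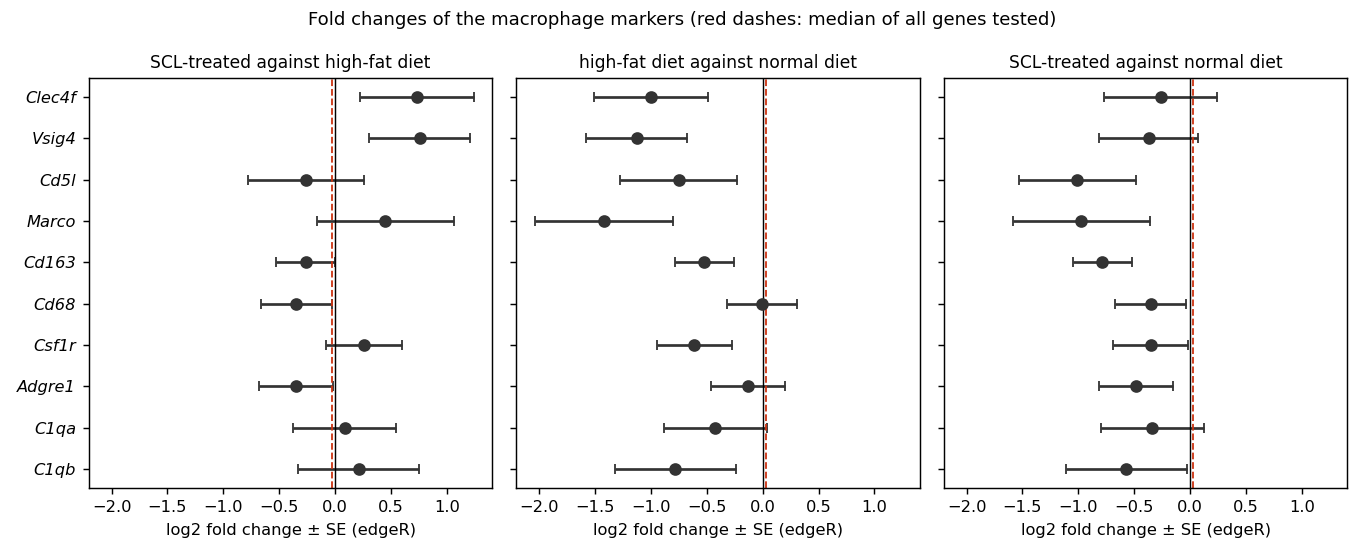
Log2 fold change (horizontal axes, points) with its standard error (bars) of each macrophage gene in the 3 comparisons, from edgeR over 9 libraries; red dashes mark the median of all 12041 genes. Marco (-1.42) and Vsig4 (-1.13) are farthest from 0 between high-fat diet and normal diet livers, and Vsig4 (0.76) and Clec4f (0.73) between SCL-treated and high-fat diet livers.

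Without the 2 libraries over 40% mitochondrial, 2 high-fat diet libraries stood against 3 on the normal diet. There 8 of the 10 genes had a log2 fold change below 0, as did 46.9% of all genes, and their median was -0.43. Vsig4 stood at -0.84 (SE 0.23, edgeR adjusted p = 0.90), Marco at -1.09 (SE 0.62), Clec4f at -0.69 (SE 0.33) and Csf1r at -0.47 (SE 0.32). Again 2 of the 10 genes had groups that lay apart downward in CPM, against 7.89% of all genes. An edgeR unadjusted p under 0.05 was found for 1 of the 10 (Vsig4), against 4% of all genes, and 0 passed, where edgeR called 0%. With the log2 mitochondrial share as a covariate over all 9 libraries 8 of the 10 were below 0, against 47.8% of all genes, and the median was -0.18, with Marco at -0.75, Vsig4 at -0.57, Clec4f at -0.29 and Cd5l at -0.01. The mean mitochondrial share was 22.6% ± 19.9 on the high-fat diet and 6.54% ± 4.01 on the normal diet (SD, n = 3 each). Its part in the differences beyond these 2 refits was not tested.

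**Figure D3:**
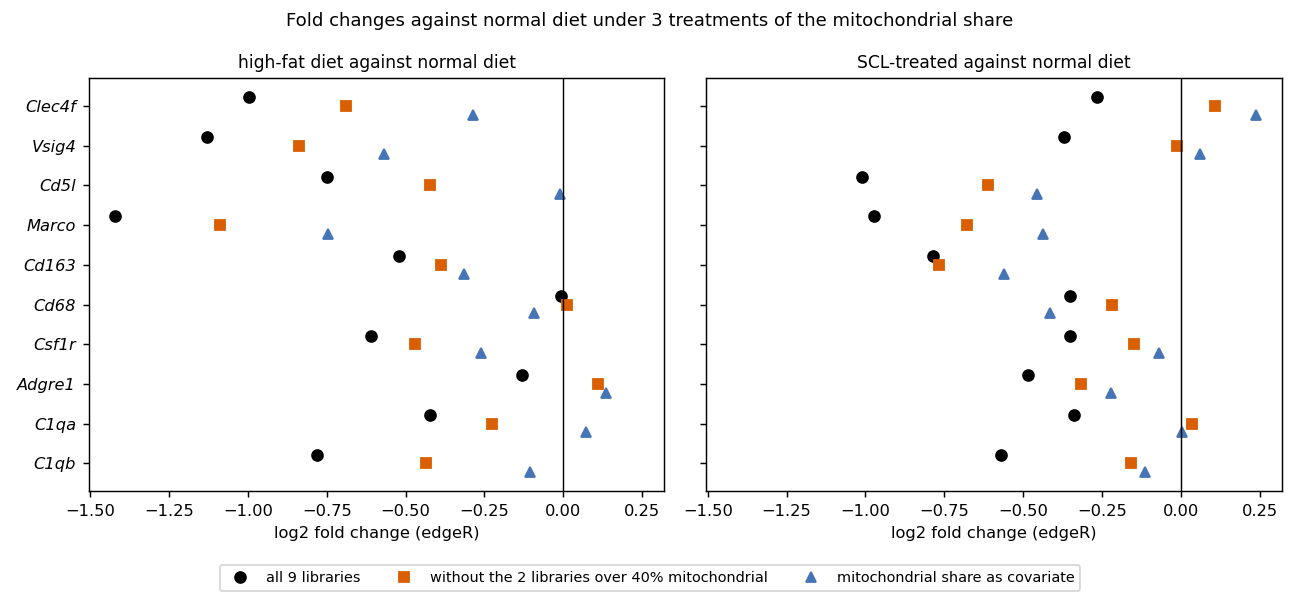
Log2 fold change (horizontal axes) of each macrophage gene against normal diet from the fit to all 9 libraries (black circles), without the 2 libraries over 40% mitochondrial (orange squares) and with the mitochondrial share as covariate (blue triangles). Between high-fat and normal diet the median over the 10 genes moved from -0.68 with all libraries to -0.43 and -0.18.

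SCL-treated livers were compared with high-fat diet livers to ask what SCL changed. Of the 10 genes 6 had a log2 fold change above 0 and 4 below, where 46.7% of all genes were above, and their median was 0.15 against -0.03 over all genes. The median was 0.27 without the 2 libraries over 40% mitochondrial, again with 6 above 0 and 4 below, where 54.8% of all genes were below. With the mitochondrial share as covariate it was -0.04, with 4 above 0 and 6 below, where 51.4% of all genes were below. None of the 10 passed in edgeR (lowest adjusted p = 1.00), DESeq2 or limma-voom, and 0 of the 10 had an unadjusted p under 0.05. Over all genes edgeR called 0% and 1.95% had an unadjusted p under 0.05, while DESeq2 called 0.0083%. The groups overlapped for each of the 10 genes, and lay apart for 4.78% of all genes.

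Clec4f and Vsig4 had the most positive values over all 9 libraries, and their size moved with single libraries. Clec4f had 173.6, 66.9 and 272.5 CPM in SCL-treated livers, against 102.1, 154.3 and 52.2 CPM in high-fat diet livers. SCL-treated replicates 1 and 3 were above all 3 high-fat diet libraries while replicate 2 was below all but high-fat diet replicate 3. The log2 fold change was 0.73 (SE 0.51, edgeR unadjusted p = 0.18). Vsig4 had 26.0, 9.61 and 34.7 CPM in SCL-treated livers, against 16.3, 17.8 and 7.47 CPM in high-fat diet livers, with the same order of libraries about the gap, and a log2 fold change of 0.76 (SE 0.45, edgeR unadjusted p = 0.12). Marco had 19.7, 7.08 and 14.1 CPM in SCL-treated livers, against 6.12, 19.5 and 4.52 CPM in high-fat diet livers, a log2 fold change of 0.45 (SE 0.61). The group means of Marco thus differed by less than the spread of either group. Clec4f stood at 0.22 without SCL-treated replicate 3 and 1.14 without high-fat diet replicate 2, and Vsig4 at 0.36 without SCL-treated replicate 3 and 1.13 without SCL-treated replicate 2. Marco stood at 0.09 without SCL-treated replicate 1 and 1.35 without high-fat diet replicate 2, above Clec4f and Vsig4 in that refit.

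The remaining genes lay nearer to 0. Csf1r averaged 46.7 ± 20.1 CPM in SCL-treated livers and 39.0 ± 8.13 CPM in high-fat diet livers (SD, n = 3 each), a log2 fold change of 0.26 (SE 0.34). C1qb stood at 0.21 (SE 0.54) and C1qa at 0.09 (SE 0.46). Cd5l stood at -0.26 (SE 0.52), Cd163 at -0.26 (SE 0.26), Cd68 at -0.35 (SE 0.32) and Adgre1 at -0.35 (SE 0.33). Single libraries turned some of these signs. C1qa stood at -0.38 without SCL-treated replicate 1, and at -0.01 and -0.12 when high-fat diet replicate 1 or 3 was left out. C1qb stood at -0.16 without SCL-treated replicate 3 and -0.14 without high-fat diet replicate 3. Csf1r stood at -0.15 without SCL-treated replicate 3, and Cd5l at 0.15 without SCL-treated replicate 2 and 0.09 without high-fat diet replicate 2. Without the 2 libraries over 40% mitochondrial, Vsig4 stood at 0.83 (SE 0.25), Clec4f at 0.80 (SE 0.36), Adgre1 at -0.43 (SE 0.27) and Cd163 at -0.38 (SE 0.28), with 2 libraries in each group. There 0 of the 10 genes passed in edgeR, as 0% of all genes did, and 1 of the 10, against 3.94% of all genes, had an unadjusted p under 0.05. Groups lay apart for 2 of the 10 downward and 2 upward, against 14.2% and 14.1% of all genes.

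SCL-treated livers were also compared with normal diet livers. All 10 genes again had a log2 fold change below 0, against 48.2% of all genes, with a median of -0.43 against 0.03. This comparison shares its normal diet libraries with the high-fat diet comparison and its SCL-treated libraries with the other, so the 3 sets of values are not independent. In edgeR 0 of the 10 passed (lowest adjusted p = 0.66), 0.0083% of all genes did, and 1 of the 10, Cd163, had an unadjusted p under 0.05, as did 6.88% of all genes. DESeq2 called 0 of the 10 and 0.332% of all genes. limma-voom with quality weights called Cd163 (-0.87, adjusted p = 0.048) as 1 of 152 genes called among all 12041.

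Cd163 had 17.49, 16.01 and 16.50 CPM in SCL-treated livers, against 31.8, 32.7 and 21.6 CPM in normal diet livers. In CPM the 3 SCL-treated libraries lay within a narrow range, all below the lowest normal diet library. The log2 fold change was -0.78 (SE 0.26, edgeR unadjusted p = 0.013, adjusted p = 0.66). SCL-treated replicate 2, the lowest of the 9 libraries in CPM for 5 of the other genes, was close to its group for Cd163 in CPM. Per 10⁶ reads that were not mitochondrial, Cd163 had 20.2, 26.1 and 15.8 in SCL-treated livers, against 36.5, 38.9 and 24.3 in normal diet livers. On that scale SCL-treated replicate 2 was above normal diet replicate 3, so the groups overlapped. Without the 2 libraries over 40% mitochondrial Cd163 stood at -0.77 (SE 0.27). Cd5l had 65.3, 15.6 and 57.8 CPM in SCL-treated livers, against 108.5, 102.7 and 68.5 CPM in normal diet livers. The Cd5l groups did not overlap in CPM either, and the log2 fold change was -1.01 (SE 0.52). Adgre1 had 10.9, 7.18 and 11.2 CPM in SCL-treated livers, against 16.1, 11.6 and 13.3 CPM in normal diet livers, a log2 fold change of -0.48 (SE 0.33) from groups that lay just apart. In CPM, groups lay apart downward for these 3 of the 10 genes, with or without the 2 libraries, against 7.81% of all genes with them and 15.4% without.

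The other 7 genes overlapped between SCL-treated and normal diet livers. Marco stood at -0.97 (SE 0.61), C1qb at -0.57 (SE 0.54), Vsig4 at -0.37 (SE 0.45), Csf1r at -0.35 (SE 0.34), Cd68 at -0.35 (SE 0.32), C1qa at -0.34 (SE 0.46) and Clec4f at -0.27 (SE 0.51). Without SCL-treated replicate 2 Clec4f stood at 0.12 and C1qa at 0.05. Without the 2 libraries over 40% mitochondrial 8 of the 10 genes were below 0, as were 52.7% of all genes, and their median was -0.19. In that fit 0 of the 10 passed in edgeR, as 0% of all genes did. There 1 of the 10 had an edgeR unadjusted p under 0.05, against 7.02% of all genes. With the mitochondrial share as covariate 7 of the 10 were below 0, against 51.6% of all genes, with a median of -0.17. By mean CPM the SCL-treated group lay between the other groups for 6 genes (Clec4f, Vsig4, Marco, Csf1r, C1qa and C1qb) and below both for 4 (Cd5l, Cd163, Cd68 and Adgre1).

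Summed over the 10 genes, the level was 568.5, 219.8 and 666.0 CPM in SCL-treated replicates 1, 2 and 3, then 391.1, 577.6 and 245.1 CPM in the high-fat diet replicates and 731.8, 742.5 and 533.1 CPM in the normal diet replicates. The 2 libraries over 40% mitochondrial had the lowest sums, and high-fat diet replicate 1, with 4.90% mitochondrial reads, had the lowest of the others. Counted per 10⁶ reads that were not mitochondrial, the sum was 656.3, 358.0 and 637.7 in SCL-treated libraries, 506.8, 675.6 and 393.3 in high-fat diet libraries and 839.7, 881.7 and 599.5 in normal diet libraries. High-fat diet replicate 2 was above normal diet replicate 3 on either scale.

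**Figure D4:**
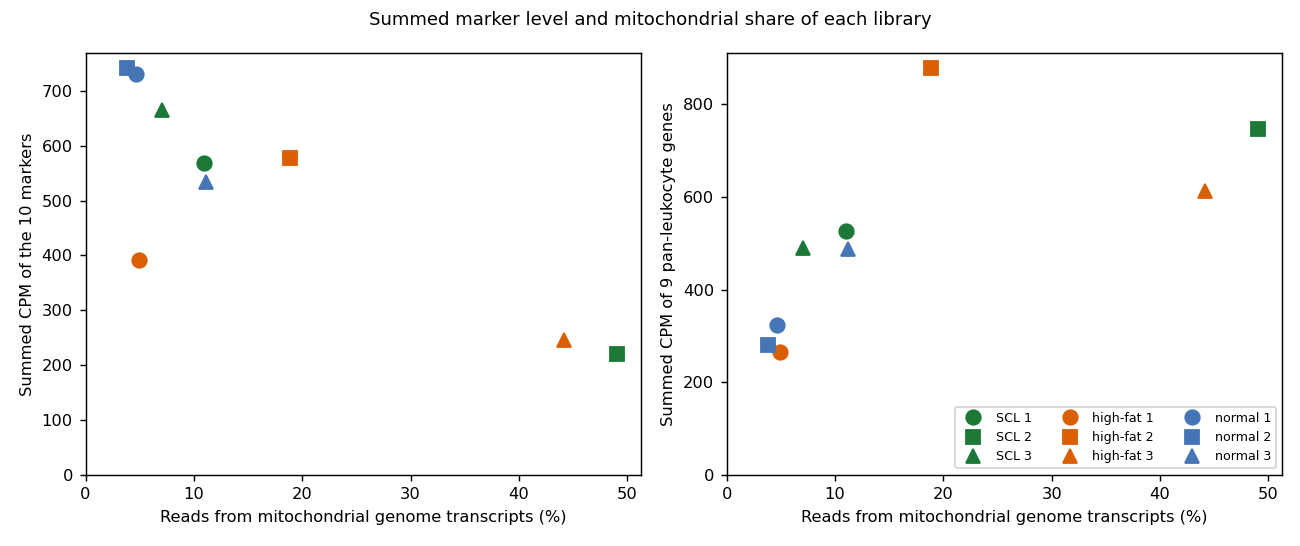
Summed CPM of the 10 macrophage genes (left) and of 9 pan-leukocyte genes (right), on linear axes from 0, against the percentage of reads from mitochondrial genome transcripts; each point is a library. SCL-treated replicate 2 and high-fat diet replicate 3, at 49.0% and 44.1%, have the lowest macrophage sums (219.8 and 245.1 CPM), while their pan-leukocyte sums are 746.4 and 612.4 CPM.

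The make-up of the macrophage reads also differed between libraries. Clec4f supplied 30.5%, 30.4% and 40.9% of the 10 genes' reads in SCL-treated libraries, 26.1%, 26.7% and 21.3% in high-fat diet libraries and 30.8%, 32.1% and 28.7% in normal diet libraries. The 3 high-fat diet libraries were the lowest of the 9. The 95% Wilson interval, which covers counting error only, was 39.8% to 42.0% for SCL-treated replicate 3 and 19.8% to 22.9% for high-fat diet replicate 3. Cd68 supplied 3.77%, 7.51% and 3.69% in SCL-treated libraries, 4.29%, 6.44% and 10.4% in high-fat diet libraries and 3.72%, 3.003% and 5.68% in normal diet libraries. Per length, in FPKM, Clec4f was 5.21, 2.61 and 7.14 times Cd68 in SCL-treated libraries, 3.92, 2.67 and 1.32 times in high-fat diet libraries and 5.32, 6.88 and 3.25 times in normal diet libraries. SCL-treated replicate 2 and high-fat diet replicates 2 and 3 had the lowest ratios.

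**Figure D5:**
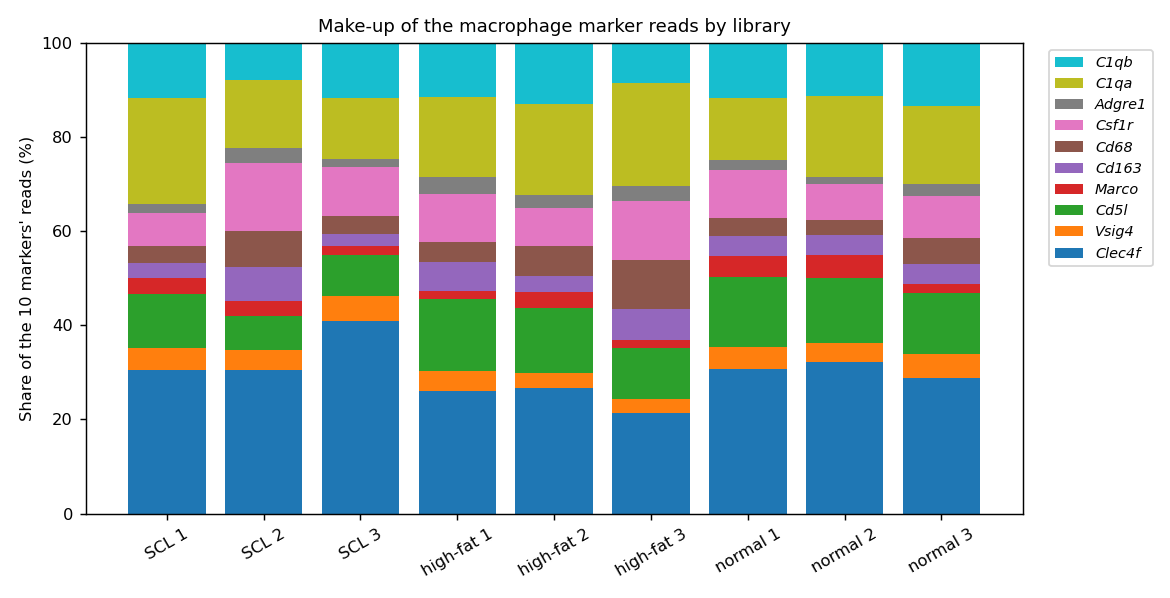
Share of the reads of the 10 macrophage genes that each gene supplied (vertical axis, percent, stacked to 100) in each SCL-treated, high-fat diet and normal diet library. Clec4f ran from 21.3% in high-fat diet replicate 3 to 40.9% in SCL-treated replicate 3.

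C1qa, C1qb and C1qc encode the chains that assemble into C1q, the first component of complement. C1qc, with a mean of 73.6 FPKM, had 89.3, 48.9 and 99.3 CPM in SCL-treated livers, 58.7, 99.5 and 52.7 CPM in high-fat diet livers and 86.8, 93.7 and 85.7 CPM in normal diet livers. Its log2 fold change was -0.34 (SE 0.34) between high-fat and normal diet livers and 0.17 (SE 0.34) between SCL-treated and high-fat diet livers. In FPKM, C1qc was 2.80 times C1qb in SCL-treated replicate 2 and 2.51 times in high-fat diet replicate 3, against 1.007 to 1.32 times in the other 7 libraries. C1qa was 1.89 and 2.67 times C1qb in the same 2 libraries and 1.14 to 1.98 times in the others. The chains therefore did not keep a fixed ratio, and the libraries with many mitochondrial reads had little C1qb relative to C1qc.

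The genes most like Clec4f and C1qa were found by the root mean square difference between log2 CPM profiles, each centred on its own mean over the 9 libraries. Nearest to Clec4f were Serpina3c and Tnfrsf21 (0.17 each), Vsig4 (0.18), Tmem176a (0.25) and Tapbp (0.27), where the median over all genes was 0.92. C1qb came 12th at 0.29, and Cd68, at 0.74, was the farthest of the 10 from Clec4f. Nearest to C1qa were Arfrp1, Ddost, Npc2, Nectin2 and Igfals, all at 0.23, where the median was 0.78. C1qb stood at 0.37 from C1qa and Marco at 0.64. The nearest genes shared the low values of SCL-treated replicate 2 and high-fat diet replicate 3, with Serpina3c at 2332 and 2063 CPM there and 3218 to 7644 CPM in the other libraries.

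Other genes of macrophage biology were taken from lists, and no gene of any list passed in edgeR or DESeq2 in any comparison. For high-fat against normal diet, an edgeR unadjusted p under 0.05 was found for 3 of 20 other Kupffer cell genes (2 lower and 1 higher). It was also found for 1 of 17 phagocytic genes, 1 of 5 genes in a list of complement C1 and its inhibitor, and 0 of the growth signal, recruited and pan-leukocyte genes. The share over all genes was 4.32%. For SCL-treated against normal diet it was found for 3 of 20 other Kupffer cell genes (2 lower and 1 higher). There it was also found for 3 of 14 recruited genes (2 higher and 1 lower), 1 of 9 pan-leukocyte genes and 0 of the others, against 6.88% of all genes. For SCL-treated against high-fat diet it was found for 1 of 14 recruited genes and 0 of the others, against 1.95% of all genes. C1qc is in both the Kupffer cell and the complement C1 list. Of 20 other Kupffer cell genes tested, 12 were below 0 and 8 above between high-fat and normal diet livers (median -0.26), where 47.2% of all genes were below. That median was -0.16, over 21 genes, without the 2 libraries over 40% mitochondrial. With the mitochondrial share as covariate 10 were below and 10 above, where 47.8% of all genes were below. There were 9 below and 11 above between SCL-treated and high-fat diet livers (median 0.03), where 53.3% of all genes were below. Nr1h3, the oxysterol receptor LXR alpha, stood at 0.05 (SE 0.26) and 0.17 (SE 0.26) in these comparisons. Timd4, which marks long-lived Kupffer cells in mouse, was under the count filter over all 9 libraries, with at most 29 reads in a library. It is the gene added when the 2 libraries over 40% mitochondrial were removed. Mertk and Clec4a3, of opposite direction, were named after their values were seen. Mertk, a receptor for dying cells, had 13.7, 15.5 and 20.1 CPM in high-fat diet livers, against 27.7, 32.7 and 27.4 CPM in normal diet livers. Its groups did not overlap, and its log2 fold change was -0.83 (SE 0.27, edgeR unadjusted p = 0.010, adjusted p = 0.91). Clec4a3, a C-type lectin receptor, went the other way, with 4.65, 8.32 and 6.08 CPM in high-fat diet livers, against 3.78, 3.80 and 4.05 CPM in normal diet livers, from groups that did not overlap (0.71, SE 0.32, edgeR unadjusted p = 0.048, adjusted p = 0.91).

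Genes of macrophage growth signals and transcription factors had a median of 0.28 between high-fat and normal diet livers. Of these 10 of 12 were above 0, where 47.2% of all genes were below 0. The median was 0.21 without the 2 libraries over 40% mitochondrial and 0.08 with the mitochondrial share as covariate. Cebpb and Cebpa, the most abundant of them and also made by hepatocytes, stood at 0.03 (SE 0.38) and -0.03 (SE 0.39). Named after their values were seen, Spi1, which encodes PU.1, stood at 0.52 (SE 0.30), and Csf2rb, a cytokine receptor chain, at -0.85 (SE 0.45) from groups that did not overlap. Between SCL-treated and high-fat diet livers the list's median was -0.15, with 10 of 12 below 0, as were 53.3% of all genes.

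Genes of recruited and lipid-laden macrophages had a median of 0.53 between high-fat and normal diet livers. Of the 14 genes tested 11 were above 0, where 47.2% of all genes were below 0. Between SCL-treated and high-fat diet livers the median was 0.31, with 8 above 0, where 53.3% of all genes were below 0. The most abundant were Plin2, a lipid droplet coat that hepatocytes also make, at -0.16 (SE 0.45) and -1.01 (SE 0.46), and Lyz2, the myeloid lysozyme, at 0.72 (SE 0.55) and -0.23 (SE 0.55). Ccr2, the receptor that draws monocytes into tissue, had at most 1 read in a library, and Trem2, a marker of lipid-associated macrophages, at most 5. With the mitochondrial share as covariate the median for high-fat against normal diet was -0.09. Without the 2 libraries over 40% mitochondrial it was 0.39 there and -0.45 for SCL-treated against high-fat diet livers.

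Phagocytic and lysosomal genes had a median of -0.15 between high-fat and normal diet livers over 17 genes. Ctsl, a lysosomal protease, had 426.2, 682.0 and 482.0 CPM in high-fat diet livers, against 841.6, 1023 and 981.4 CPM in normal diet livers, from groups that did not overlap (log2 fold change -0.84, SE 0.35, edgeR adjusted p = 0.91). Lamp2, a lysosomal membrane protein, had 375.6, 559.5 and 472.0 CPM in SCL-treated livers, against 253.9, 356.1 and 300.5 CPM in high-fat diet livers, again without overlap (0.63, SE 0.29, edgeR adjusted p = 1.00). In the complement C1 list, C1r, a protease made mostly by hepatocytes, stood at -0.90 (SE 0.40) and Serping1, the C1 inhibitor, at -0.86 (SE 0.63) between high-fat and normal diet livers.

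Pan-leukocyte genes lay mostly above 0 where the macrophage markers lay below it. Between high-fat and normal diet livers 8 of 9 were above 0 with a median of 0.52, where 47.2% of all genes were below 0. Between SCL-treated and normal diet livers 9 of 9 were above 0 with a median of 0.58, where 48.2% of all genes were below 0. None of the 9 passed in either. Cd74, the invariant chain of antigen presentation, stood at 0.81 (SE 0.49) and 0.72 (SE 0.49) in these comparisons, and Coro1a, an actin-binding protein of leukocytes, at 0.86 (SE 0.49) and 1.32 (SE 0.50, edgeR unadjusted p = 0.023, adjusted p = 0.66). Summed over the 9 genes the level was 489.4 to 746.4 CPM in SCL-treated libraries, 266.1 to 879.5 CPM in high-fat diet libraries and 280.4 to 487.1 CPM in normal diet libraries. Without the 2 libraries over 40% mitochondrial the medians were 0.46 and 0.36, with 9 of 9 above 0 in each. Of all genes 46.9% and 52.7% were below 0 there. With the mitochondrial share as covariate 5 of 9 were above 0 between high-fat and normal diet livers, with a median of 0.06. In that fit 47.8% of all genes were below 0.

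Markers of other liver cells stood beside these values. The 12 hepatocyte markers summed to 80225 to 238620 CPM in SCL-treated libraries, 77925 to 155079 CPM in high-fat diet libraries and 160106 to 195568 CPM in normal diet libraries, with medians of -0.52 for high-fat against normal diet and 0.15 for SCL-treated against high-fat diet. For high-fat against normal diet that median was -0.23 without the 2 libraries over 40% mitochondrial and -0.03 with the mitochondrial share as covariate. The lowest sums of hepatocyte markers were in the same 2 libraries as those of the macrophage genes. The 11 sinusoidal endothelial markers tested summed to 349.8 to 373.2 CPM in SCL-treated libraries, 295.4 to 356.5 CPM in high-fat diet libraries and 357.2 to 454.5 CPM in normal diet libraries. Summed erythroid markers, 5 of them tested, were 362.0 to 1234 CPM in SCL-treated, 234.5 to 1218 CPM in high-fat diet and 134.6 to 424.3 CPM in normal diet libraries. The highest sums, 1234 and 1218 CPM, were those of the 2 libraries over 40% mitochondrial. The erythroid median for high-fat against normal diet was 1.10 over all libraries. It was 0.20 without these 2 libraries and -0.07 with the mitochondrial share as covariate. For high-fat against normal diet, several other lists turned sign with the treatment of the mitochondrial share. The neutrophil genes, of which only 3 of 9 listed were tested, had a median of 1.14 over all libraries. It was -0.27 without the 2 libraries over 40% mitochondrial and -0.45 with the covariate. The 5 cholangiocyte genes tested had 0.65, -0.16 and -0.68 in the same fits. B lineage genes had 0.51, -0.18 and 0.04, over 5, 6 and 5 genes. T and NK cell genes had 0.60, 0.58 and 0.24, dendritic cell genes 0.49, 0.46 and 0.03, and stellate cell genes -0.19, -0.17 and -0.34. Over all libraries 8 of 9 T and NK cell genes were above 0. Cd4, the most abundant of them and named after its values were seen, was below 0 at -1.24 (SE 0.42). The part of these other cell types in the macrophage values was not tested.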

How the data were processed

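Total RNA of liver was extracted with Trizol and libraries were built using the NEBNext Ultra kit, as the labels' protocols state. Of the 2 tables deposited, 1 sets SCL-treated against high-fat diet livers and 1 sets high-fat against normal diet livers. Each contains, per the file headers, raw read counts per gene, FPKM values, and the authors' log2 fold changes with p-values and adjusted p-values. A further set of columns holds, for each library, a normalized signal, the deposited counts divided by a constant. Mouse build mm9 and DESeq2 (version not given) appear in the submitters' processing notes. The aligner, counter and strand setting were not given in the sources used here. Among symbols present in both deposits, 92.6% matched rat RefSeq genes (GRCr8), and no coordinates were taken from mm9.

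The tables share 15565 genes, which were analysed, and hold identical high-fat diet counts for them. Every pair of libraries within a group differed by more than sampling noise (chi-square per degree of freedom 38.5 or more). The main test was that of edgeR 4.0.16, run under R 4.3.3: filterByExpr with a minimum count of 10 left 12041 genes, libraries were scaled by TMM, and all 9 were fitted together by quasi-likelihood on group alone, which leaves 6 residual degrees of freedom. Standard errors were obtained as |log2 fold change|/√F. Fold changes have the first-named group on top, whereas the authors' normal and high-fat diet table has normal diet on top. The depth of 12413774 to 15521648 reads per library limits precision for genes of few reads.

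The members, the gene lists and the tests were chosen with earlier results of these data known. Genes named are the 10 members, the called genes and the 2 most abundant by mean FPKM of each list of macrophage biology, and the 5 nearest to Clec4f and to C1qa, and others are said to be named after their values were seen. Lists of stellate cells, neutrophils, T and NK cells, the B lineage, dendritic cells and cholangiocytes were also run. Alternatives were limma-voom (limma 3.58.1), DESeq2 1.42.0, edgeR with the size factors of DESeq2 or with unscaled totals, testing without the count filter or on the 6 libraries of a comparison, blocking on replicate number, leaving out single libraries, a threshold of 0.1, removal of libraries over 40% mitochondrial, the log2 mitochondrial share as covariate, and mitochondrial transcripts removed. Both count tests were first tested on simulated data with 200 changed genes. Replicate numbers did not pair the samples.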

Additional observations from a re-analysis of the deposited data

How the results depend on the processing

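No gene of the 10 was called in any comparison under any alternative, apart from Cd163 between SCL-treated and normal diet livers, where limma-voom called 1. Over all genes, DESeq2 called 1 between SCL-treated and high-fat diet livers, against 0 in edgeR. Between high-fat and normal diet livers, against 1 in edgeR, DESeq2 called 50, limma-voom 26, an adjusted p under 0.1 gave 2, no count filter 2, and library totals alone, the 6 libraries compared and removal of the 2 libraries over 40% mitochondrial 0 each. Leaving out 1 library gave 1 to 4. Between SCL-treated and normal diet livers, against 1 in edgeR, DESeq2 called 40, limma-voom 152, and library totals alone and removal of the 2 libraries 0 each, and leaving out 1 library gave 0 to 1. The cause was not tested.

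Signs near 0 turned, and the cause was not tested. For SCL-treated against high-fat diet livers, C1qa was -0.0084 with library totals alone and -0.0697 with the mitochondrial covariate, C1qb was -0.0094 with that covariate, and Cd5l was 0.0123 in limma-voom. Leaving out 1 library gave -0.38 to 0.47 for C1qa, -0.16 to 0.71 for C1qb, -0.60 to 0.15 for Cd5l and -0.15 to 0.47 for Csf1r. For SCL-treated against normal diet livers, the covariate gave 0.0033 for C1qa, 0.24 for Clec4f and 0.0597 for Vsig4, and removal of the 2 libraries gave 0.0359 for C1qa and 0.11 for Clec4f. Leaving out 1 library gave -0.82 to 0.0458 for C1qa and -0.79 to 0.12 for Clec4f. For high-fat against normal diet livers, the covariate gave 0.13 for Adgre1 and 0.0729 for C1qa, removal of the 2 libraries 0.11 for Adgre1 and 0.0125 for Cd68, and limma-voom 0.31 for Cd68. Leaving out 1 library gave -0.31 to 0.11 for Adgre1 and -0.35 to 0.23 for Cd68.

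The median over the 10 genes moved by less than 0.55, the SD between replicates of their mean log2 CPM, but moves within that limit were large against the medians themselves. With the mitochondrial covariate it was -0.18 for high-fat against normal diet livers, against -0.68, and -0.04 for SCL-treated against high-fat diet livers, against 0.15, a turn of sign. It ran from -0.96 to -0.43 for high-fat against normal diet livers, -0.78 to -0.18 for SCL-treated against normal diet livers and -0.15 to 0.47 for SCL-treated against high-fat diet livers when 1 library was left out. With library totals alone the median of all genes was -0.19, -0.03 and -0.21 for SCL-treated against high-fat diet, high-fat against normal diet and SCL-treated against normal diet, and the medians of the 10 genes were 0.03, -0.75 and -0.65. With the replicate number as a block the medians of the 10 genes were 0.16, -0.68 and -0.44 in the same order, and 0 of the 10 were called in each. Same-numbered libraries had correlations of deviations from -0.35 to 0.60, so the numbers were not taken as a pairing. Depth limits Marco and Adgre1 most, with as few as 52 and 74 reads in a library.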
